A study of Mus musculus with 8 samples.

Results

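Aminoacyl-tRNA synthetases join each amino acid to its tRNA before translation. The 36 genes described here were taken by symbol from the RPKM tables (reads mapped, scaled by transcript length and by library depth) of 8 RNA-seq libraries, which list 41325 genes. They comprise 20 cytosolic enzymes, whose symbols carry no suffix, and 16 mitochondrial enzymes, whose symbols end in 2. All 20 cytosolic and 15 of the 16 mitochondrial genes exceeded an RPKM of 1 in at least 1 library, as did 11513 of the 41325 genes, which are called expressed below. The exception was Nars2, whose level lay between 0.432 and 0.736 RPKM.

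The libraries came from C3H10T1/2, a mouse mesenchymal stem cell line that can become fat cells. Cells carrying shControl, shKDM4D, shNFIB or shMLL1 hairpins were harvested at day 0, when they were post-confluent and untreated, and at day 5 of adipogenic differentiation, after insulin, dexamethasone and isobutylmethylxanthine, with 1 library for each of the 8 conditions. All lines share the C3H10T1/2 background, which the labels give as WT for shControl, and the knockdown lines were grown from puromycin-resistant clones, so a difference between lines is also a difference between clones, and which clone was sequenced is not given in the sources used here. KDM4D removes methyl groups from histone H3 lysine residues, NFIB is a DNA-binding transcription factor and MLL1 (gene Kmt2a) is a histone H3 lysine methyltransferase. With no replicates there was no test. Differences are log2 ratios of RPKM between libraries, with 95% intervals that cover counting error only and are exact except for Hars, Lars and Nars. An interval off 0 therefore says that these libraries differ, not that the conditions do. Intervals are narrow for genes with many reads, so a small ratio can lie off 0. The share of all expressed genes with an interval off 0 was not computed, so counts of such intervals have no background beside them here. A member is called past the limit where its ratio exceeded 2-fold, and the share of all expressed genes past the same limit is given for each comparison.

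Cytosolic synthetases charge tRNAs for translation of nuclear messages, while the mitochondrial enzymes, also encoded in the nucleus, serve the few proteins made inside mitochondria. Several cytosolic enzymes sit together in the multi-synthetase complex, held by scaffold proteins. Genes for cytosolic synthetases are textbook targets of ATF4, the transcription factor of the amino acid and integrated stress response, which binds C/EBP-ATF response elements together with partner bZIP proteins. Gars and Kars have no gene with the suffix 2 because each encodes both the cytosolic and the mitochondrial enzyme.

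The core of that response element, TGATGNAA, was searched on both strands of the promoters in a RefSeq table (GRCm38.p6, from 250 bases before to 50 bases after the start). Of the 20 cytosolic members 13 were in the table, and 5 of these (Aars, Gars, Iars, Tars and Yars) held the core, a share of 38.5%. It was found in 0 of the 14 mitochondrial members with a promoter in the table and in 1219 of all 27025 genes there (4.51%). The 5 windows of 30 bases below show a match in each of these genes, since genes with this core were among those with the largest differences described next. Each is written 5′ to 3′ on the strand of its gene, with the core or its reverse complement in capitals.
Aars, chr8:111033840-111033869, + strand: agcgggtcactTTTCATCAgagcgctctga
Gars, chr6:55037960-55037989, + strand: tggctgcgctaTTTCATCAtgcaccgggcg
Iars, chr13:49682126-49682155, + strand: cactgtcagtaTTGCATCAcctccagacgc
Tars, chr15:11399655-11399684, - strand: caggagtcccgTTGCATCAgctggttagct
Yars, chr4:129189895-129189924, + strand: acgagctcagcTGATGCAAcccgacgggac
The first base of the core lay 9 bases after the start in Aars, 30 before it in Gars, 7 after it in Iars, 15 before it in Tars and 3 after it in Yars. Aars held another match, 112 bases before the start, which is not shown. The start is that of the RefSeq table, which for Aars lies inside the gene span given below. A match is a description of these letters and was not tested as a site. The members with no promoter in the table were Cars, Hars, Lars, Nars, Rars, Vars, Wars, Hars2 and Pars2.

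Before the results, the libraries were checked against their labels. Depth, recovered from the RPKM steps, lay between about 15800000 (shNFIB, day 5) and 38200000 mapped reads (shMLL1, day 0). Mesenchymal markers (Col1a1, Col1a2, Vim, Thy1, Ly6a, Eng, Pdgfra) summed to 2121 to 2904 RPKM in the 8 libraries, but Thy1 stood at 0.017 to 0.139 RPKM in the 4 shKDM4D and shNFIB libraries, against at least 11.1 in the others. Adipocyte markers (Fabp4, Adipoq, Plin1, Cidec, Lpl, Cd36) summed to at most 0.723 RPKM at day 0. Their day 5 sum was 746 RPKM for shControl, 25.4 for shKDM4D, 0.955 for shNFIB and 2.74 for shMLL1. Macrophage markers (Ptprc, Adgre1, Csf1r) did not exceed a sum of 0.0758 RPKM, endothelial markers (Pecam1, Cdh5, Tek) 1.72 and epithelial markers (Epcam, Cdh1, Krt8) 1.68, with Epcam at 0 throughout. Of the targeted genes, Nfib stood at 2.31 RPKM in shNFIB cells and 9.92 in shControl cells at day 0, and Kmt2a at 2.00 in shMLL1 cells and 5.17 in shControl cells. Kdm4d, at no more than 0.235 RPKM in any library, was too low to check the label. The lines therefore differed in adipocyte marker levels at day 5, and in these bulk libraries fewer cells of a type and less RNA per cell cannot be told apart.

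As a set, the cytosolic enzymes were expressed far above the mitochondrial enzymes in every library. This did not hold for each pair, since Lars lay below Lars2 in both shNFIB libraries. Summed over the 20 genes, cytosolic RPKM lay between 434 (shControl, day 5) and 980 (shControl, day 0), and the sum over the 16 mitochondrial genes between 61.2 and 90.7. Nars, the asparaginyl enzyme, was the highest of the 36 in all 8 libraries, at 67.1 to 189 RPKM. Among mitochondrial members Lars2, the leucyl enzyme, was the highest in every library (15.2 to 43.2 RPKM). Iars2 and Rars2, the isoleucyl and arginyl enzymes, followed it at 8.37 to 12.3 and 8.12 to 12.7 RPKM, ranges that overlap. The library with the highest level was that of shControl or shKDM4D cells at day 0 for 13 of the 20 cytosolic genes, and the lowest was that of shControl cells at day 5 for 10 of them.

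**Figure D1:**
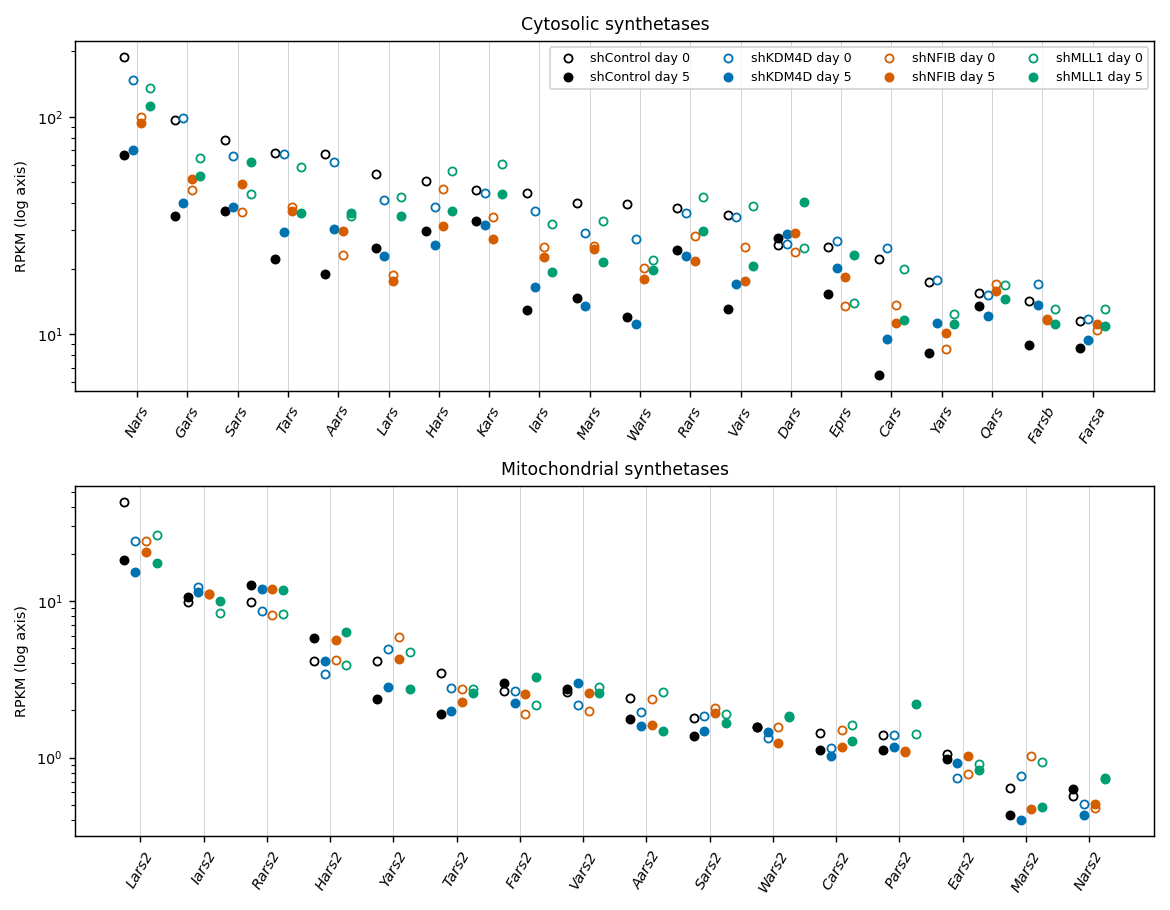
RPKM (log axis) of the 20 cytosolic (top) and 16 mitochondrial (bottom) synthetase genes in each of the 8 libraries, with open circles for day 0 and filled circles for day 5, coloured by line. For 13 of the 20 cytosolic genes an open black or blue circle (shControl or shKDM4D, day 0) lies at the top, as for Nars, whose shControl level was 189 RPKM at day 0 and 67.1 at day 5.

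In shControl cells the cytosolic synthetases were lower at day 5 than at day 0 almost throughout. The median log2 ratio of the 20 genes was -1.11, against 0.03 over all expressed genes, and 19 of 20 had an interval below 0. Past the 2-fold limit were 12 of 20, each lower at day 5 (Aars, Cars, Gars, Iars, Lars, Mars, Nars, Sars, Tars, Vars, Wars and Yars), where 8.56% of expressed genes were past it downward and 13.0% upward. The mitochondrial members had a median of -0.32, with 1 of 15 past the limit (Lars2), and without Lars2 their median was -0.21. Quantile normalization of the 8 libraries moved the mitochondrial median to -0.66, with 3 past the limit, and left the cytosolic count at 12.

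Among the lowest shControl ratios was that of Aars, the alanyl-tRNA synthetase (chr8:111033144-111057664). At day 0 Aars stood at 67.2, 61.7, 23.2 and 35.0 RPKM in the shControl, shKDM4D, shNFIB and shMLL1 lines, the order kept below, and the values of day 5 were 18.9, 30.3, 29.8 and 36.2 RPKM. The shControl and shKDM4D libraries of day 0 were thus highest and the shControl library of day 5 lowest, and in shNFIB and shMLL1 cells the day 5 value was the higher. Its log2 ratio of day 5 to day 0 was -1.83 (95% interval -1.88 to -1.78) in the shControl line. With the other hairpins it was -1.03 (-1.07 to -0.98) for shKDM4D, 0.36 (0.30 to 0.42) for shNFIB and 0.045 (0.0096 to 0.081) for shMLL1, the last below the median of 0.17 over all expressed genes in that line.

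Cars, the cysteinyl enzyme (chr7:143557230-143600090), had in the same order of lines 22.3, 24.9, 13.6 and 19.99 RPKM at day 0 and 6.45, 9.49, 11.3 and 11.6 at day 5. It was lower at day 5 in all 4 lines, by the most in shControl cells (-1.79, interval -1.90 to -1.68). Iars, the isoleucyl enzyme (chr13:49682100-49734267), stood at 44.5, 36.9, 25.2 and 32.1 RPKM at day 0 and at 12.9, 16.5, 22.6 and 19.2 at day 5. Here the 4 values of day 0 all exceeded the 4 of day 5, and the shControl ratio was -1.78 (-1.87 to -1.70). Wars, the tryptophanyl enzyme (chr12:108860030-108894174), stood at 39.7, 27.5, 20.2 and 21.9 RPKM at day 0 and at 11.9, 11.1, 17.9 and 19.7 at day 5. All 4 day 0 values of Wars again exceeded those of day 5, although the shNFIB and shMLL1 pairs were close. With a shControl ratio of -1.73 (-1.84 to -1.62), its interval overlapped those of Aars, Cars and Iars, so that the order of these 4 is not resolved by the counts.

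Tars, the threonyl enzyme (chr15:11382301-11399665), stood at 68.3, 67.6, 38.5 and 59.0 RPKM at day 0 and 22.2, 29.7, 36.8 and 36.1 at day 5. Its shNFIB values hardly differed between days (ratio -0.06, interval -0.13 to 0.00), whereas the shControl ratio was -1.62 (-1.68 to -1.56). Nars stood at 189, 148, 99.5 and 136 RPKM at day 0 and at 67.1, 70.3, 93.6 and 112 at day 5, a shControl ratio of -1.496 (-1.54 to -1.45). For this most abundant member the shMLL1 library of day 5 lay above the shNFIB library of day 0, so the days overlapped across lines. Gars, the glycyl enzyme of both compartments (chr6:55038007-55079500), stood at 96.8, 99.3, 46.2 and 64.6 RPKM at day 0 and 34.8, 39.9, 51.9 and 53.4 at day 5. In the shNFIB line alone Gars was higher at day 5 than at day 0, with a ratio of 0.17 (0.09 to 0.25) against -1.48 (-1.55 to -1.41) in shControl cells.

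Mars, the methionyl enzyme (chr10:127296221-127311786), stood at 40.2, 29.2, 25.4 and 33.3 RPKM at day 0 and at 14.7, 13.5, 24.7 and 21.4 at day 5. Each value of day 0 exceeded each of day 5, by little in shNFIB cells. Its shControl ratio was -1.46 (-1.56 to -1.35), and its locus overlaps Ddit3 on the opposite strand, whose reads cannot be told apart from those of Mars where counting ignored strand. Vars, the valyl enzyme (chr17:35000987-35016322), stood at 35.2, 34.6, 25.3 and 39.0 RPKM at day 0 and 13.1, 17.0, 17.6 and 20.6 at day 5. Vars was lower at day 5 in every line with no overlap between days, the shControl ratio being -1.43 (-1.51 to -1.34). Lars, the leucyl enzyme on chromosome 18, stood at 54.5, 41.5, 18.6 and 43.0 RPKM at day 0 and at 24.9, 23.0, 17.5 and 35.1 at day 5. Its shControl ratio was -1.13 (-1.19 to -1.06), and both shNFIB libraries lay below all 6 others.

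Just past the limit in shControl cells were Yars and Sars. Yars, the tyrosyl enzyme (chr4:129189760-129219607), stood at 17.4, 17.7, 8.53 and 12.4 RPKM at day 0 and 8.18, 11.2, 10.1 and 11.2 at day 5. The interval of its shControl ratio, -1.09 (-1.20 to -0.98), spans the 2-fold limit. Sars, the seryl enzyme (chr3:108424865-108445209), stood at 78.1, 66.3, 36.6 and 44.0 RPKM at day 0 and at 37.0, 38.3, 49.0 and 62.3 at day 5. Sars was lower at day 5 in the shControl line (-1.08, interval -1.13 to -1.02) and the shKDM4D line (-0.79), and higher at day 5 with the shNFIB (0.42) and shMLL1 hairpins (0.50). Next, and clearly inside the limit, were Hars (-0.76), the histidyl enzyme, and Eprs (-0.72), which carries the glutamyl and prolyl activities in a single protein.

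The remaining cytosolic members differed less. Kars, the lysyl enzyme of both compartments (chr8:111993443-112011323), stood at 46.1, 44.6, 34.6 and 60.6 RPKM at day 0 and at 33.1, 31.8, 27.5 and 44.0 at day 5. Kars was lower at day 5 by a similar amount in every line, with ratios of -0.48, -0.49, -0.33 and -0.46. Dars, the aspartyl enzyme, was the cytosolic member with a ratio above 0 in all 4 lines (0.10, 0.15, 0.29 and 0.72), and it ranged from 24.0 to 40.7 RPKM. Farsb, Rars, Farsa and Qars, which encode the beta subunit of the phenylalanyl enzyme, the arginyl enzyme, the alpha subunit of the phenylalanyl enzyme and the glutaminyl enzyme, had shControl ratios of -0.68, -0.63, -0.42 and -0.19. Their levels over the 8 libraries lay between 8.91 and 17.1 RPKM for Farsb, 21.7 and 43.0 for Rars, 8.65 and 13.1 for Farsa, and 12.1 and 17.0 for Qars.

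shKDM4D cells showed a smaller difference of the same direction. The cytosolic median of day 5 to day 0 was -0.82, with 19 of 20 intervals below 0, against 0.03 over all expressed genes. Past the limit were 9 of 20, all lower (Aars, Cars, Gars, Iars, Mars, Nars, Tars, Vars and Wars), where 8.44% of expressed genes were past it downward and 12.8% upward. The largest were Cars (-1.39), Gars (-1.31) and Wars (-1.31). The intervals of Aars (-1.07 to -0.98) and Vars (-1.10 to -0.95) span the limit. The count was 8 with 1 added to each RPKM and also with quantile normalization. No mitochondrial member was past the limit, and their median was -0.25.

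In shNFIB cells the cytosolic median was -0.08 and in shMLL1 cells -0.28, against 0.10 and 0.17 over all expressed genes. No cytosolic member was past the limit in either line, beside 4.96% of expressed genes downward and 12.6% upward for shNFIB, and 6.89% and 20.4% for shMLL1. No mitochondrial member was past it in shMLL1 cells, and in shNFIB cells Mars2 was. Within shNFIB cells 6 members had intervals above 0 (Aars, Dars, Eprs, Gars, Sars and Yars) and 9 below, over a range from -0.56 (Hars) to 0.45 (Eprs). Within shMLL1 cells 4 had intervals above 0 (Aars, Dars, Eprs and Sars) and 16 below, from -0.92 (Vars) to 0.74 (Eprs). Whether the change over time differed between lines was not tested, since each line has 1 library per day.

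**Figure D2:**
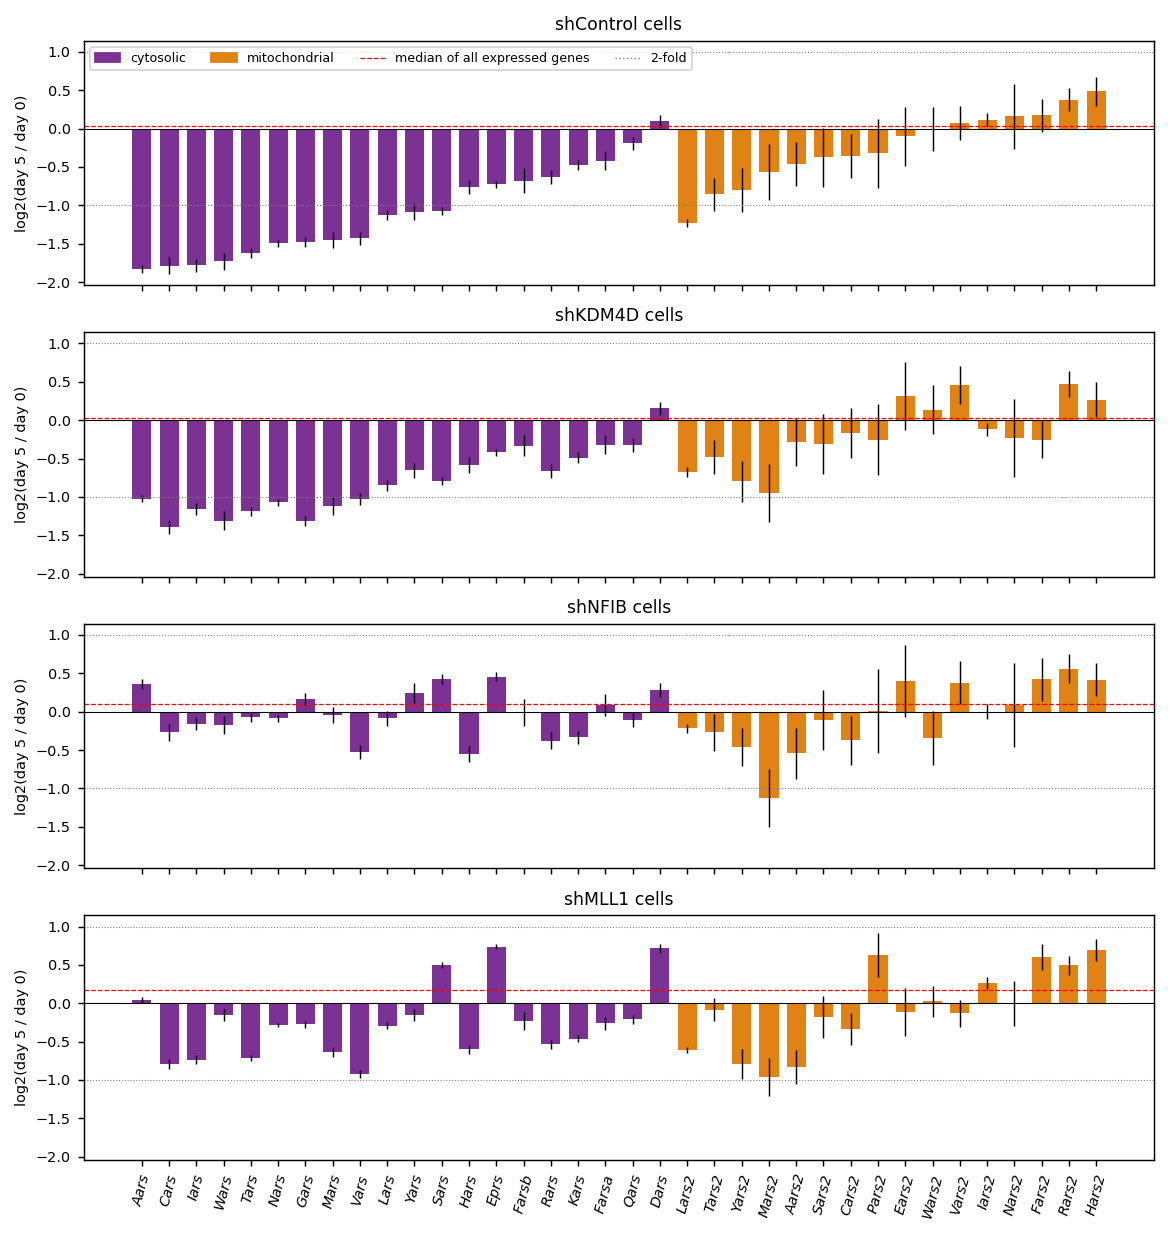
Log2 ratio of RPKM at day 5 to day 0 for each synthetase gene in the 4 lines, purple for cytosolic and orange for mitochondrial members in the order of their shControl ratios, with 95% counting intervals as black lines, the median of all expressed genes dashed red and the 2-fold limit dotted. The purple bars pass the dotted line downward for 12 genes in shControl cells and 9 in shKDM4D cells and for none in shNFIB and shMLL1 cells.

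The lines also differed before differentiation. At day 0 the cytosolic median of shNFIB to shControl cells was -0.77, with 19 of 20 intervals below 0, against 0.03 over all expressed genes. Past the limit were 5 of 20, all lower in shNFIB cells, where 6.05% of expressed genes were past it downward and 2.95% upward. These were Lars (-1.55, interval -1.62 to -1.48), Aars (-1.54, -1.59 to -1.49), Sars (-1.09, -1.15 to -1.04), Gars (-1.07, -1.13 to -1.01) and Yars (-1.03, -1.14 to -0.92). Wars (-0.98), Nars (-0.93) and Eprs (-0.91) lay just inside it. Qars (0.14) was the cytosolic member with an interval above 0. The shControl library of day 0 enters both this comparison and the shControl change over time, so their values are not independent.

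For shMLL1 cells at day 0 the cytosolic median was -0.24, against -0.07 over all expressed genes, with 13 intervals below 0 and 6 above. No member was past the limit, where 7.43% of expressed genes were past it downward and 1.67% upward. Lowest relative to shControl were Aars (-0.94), Eprs (-0.86), Wars (-0.86) and Sars (-0.83), and highest was Kars (0.40). For shKDM4D cells at day 0 the median was -0.04, with ratios from -0.53 (Wars) to 0.26 (Farsb). Again no member was past the limit, beside 4.26% of expressed genes downward and 1.98% upward.

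At day 5 the cytosolic medians relative to shControl cells lay above 0 in all 3 knockdown lines. The 3 comparisons share the single shControl library of day 5, so their direction is not independent. In shMLL1 cells 20 of 20 intervals lay above 0, with a median of 0.57 and a range from 0.11 (Qars) to 0.94 (Aars), against 0.07 over all expressed genes. The shNFIB median was 0.40, with 15 intervals above 0 and 3 below (Kars, Lars and Rars), against 0.09 over all expressed genes. Largest there were Cars (0.81), Iars (0.81), Mars (0.76) and Tars (0.73), and lowest was Lars (-0.51). The shKDM4D median was 0.09, with 10 intervals above 0 and 3 below, led by Aars (0.68), Farsb (0.61) and Cars (0.56). No synthetase was past the 2-fold limit at day 5, where the shares of expressed genes past it upward and downward were 1.88% and 4.57% for shKDM4D, 5.54% and 5.67% for shNFIB, and 5.25% and 4.02% for shMLL1 cells. Adipocyte markers moved with this comparison (746 RPKM in shControl cells against 0.955 to 25.4 in the knockdown lines), and their part in it was not tested. Interferon response genes moved too, with Isg15 at 3.70, 1.90, 76.6 and 192 RPKM in the 4 day 5 libraries, and their part was not tested either.

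**Figure D3:**
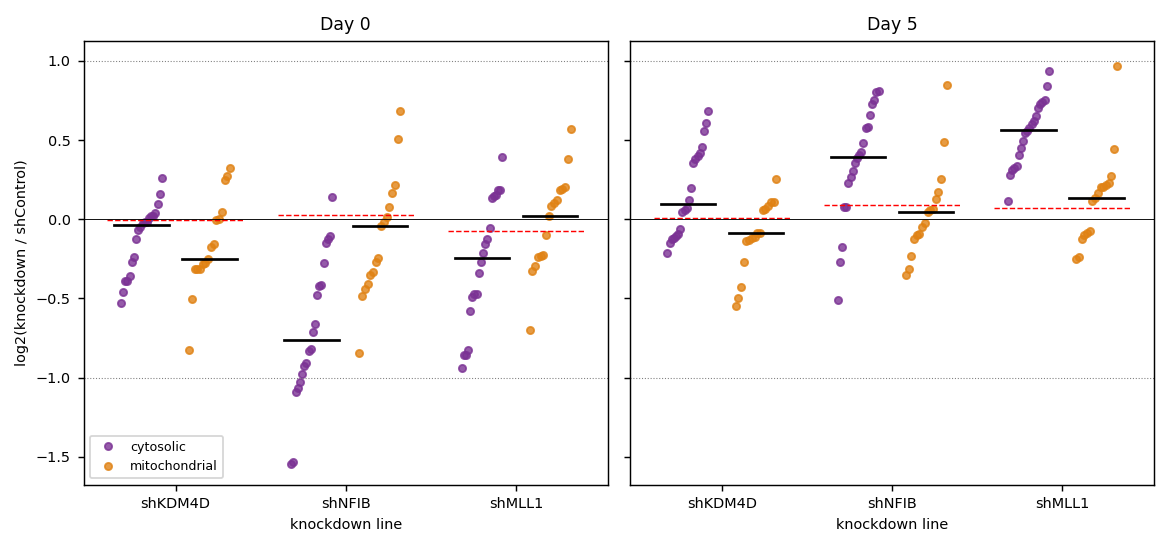
Log2 ratio of RPKM in each knockdown line to shControl cells at day 0 (left) and day 5 (right), with a point for each cytosolic (purple) or mitochondrial (orange) synthetase gene, their median as a black bar, and the median of all expressed genes dashed red. At day 0 the cytosolic points of shNFIB cells lie lowest, with a median of -0.77, and at day 5 those of shMLL1 cells lie highest, all above 0 with a median of 0.57.

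The mitochondrial medians for day 5 to day 0 were -0.32, -0.25, -0.11 and -0.12 in the 4 lines, nearer to 0 than the cytosolic medians except in shNFIB cells (cytosolic -0.08). Lars2 (chr9:123366927-123462666) stood at 43.2, 24.3, 24.1 and 26.5 RPKM at day 0 and 18.3, 15.2, 20.7 and 17.4 at day 5. It was highest in the shControl library of day 0 by a wide margin, and the days did not overlap. Its ratio of day 5 to day 0 was -1.24 (-1.29 to -1.18) for shControl cells, while shKDM4D, shNFIB and shMLL1 cells gave -0.68, -0.22 and -0.61. The share of reads on the rRNA-like genes AY036118 and CT010467.1 moved with the day as well, at 7.95% to 10.5% at day 0 and 3.07% to 3.62% at day 5, and its part in the values of Lars2 was not tested.

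Mars2, the methionyl enzyme (chr1:55237177-55248470), stood at 0.635, 0.766, 1.02 and 0.941 RPKM at day 0 and at 0.431, 0.397, 0.469 and 0.483 at day 5. It was lower at day 5 in all 4 lines without overlap, and past the limit in shNFIB cells (-1.12, interval -1.501 to -0.75), the only mitochondrial member of 15 to be so in that line. These levels rest on 84 to 406 reads a library. Mars2 exceeded an RPKM of 1 in the shNFIB library of day 0 alone, so it was counted through the library in which it is highest, and it was not past the limit with 1 added to each RPKM. Yars2, the tyrosyl enzyme (chr16:16302965-16309640), stood at 4.15, 4.92, 5.89 and 4.74 RPKM at day 0 and 2.38, 2.84, 4.29 and 2.74 at day 5. Its ratios were -0.80, -0.80, -0.46 and -0.79, close to each other except in shNFIB cells. Both of these genes had their highest level in shNFIB cells at day 0, where the cytosolic Yars was at its second-lowest of the 8 libraries.

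Hars2, the histidyl enzyme on chromosome 18, went the other way, with 4.16, 3.42, 4.21 and 3.88 RPKM at day 0 and 5.82, 4.12, 5.62 and 6.30 at day 5. It was higher at day 5 in each line, with ratios of 0.48, 0.27, 0.42 and 0.70. Hars and Hars2 overlap head to head, so their reads cannot be told apart in the shared stretch where counting ignored strand. Rars2 was likewise higher at day 5 in each line (0.38, 0.47, 0.56 and 0.50, with no interval reaching 0). Pars2, the prolyl enzyme (chr4:106651069-106655282), stood at 1.40, 1.39, 1.09 and 1.41 RPKM at day 0 and at 1.12, 1.17, 1.10 and 2.19 at day 5, on 54 to 258 reads. The shMLL1 library of day 5 was the highest for Pars2, with ratios of 0.63 (0.34 to 0.92) to day 0 and 0.97 (0.57 to 1.38) to shControl cells at day 5. The other members with a shControl interval below 0 were Tars2 (-0.86), Aars2 (-0.46) and Cars2 (-0.36), and with one above 0 Iars2 (0.12). Ears2, Fars2, Nars2, Sars2, Vars2 and Wars2 had shControl intervals that reached 0, with ratios from -0.37 (Sars2) to 0.17 (Fars2).

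At day 0 the mitochondrial median relative to shControl cells was -0.25 for shKDM4D, -0.04 for shNFIB and 0.02 for shMLL1, and at day 5 the values were -0.09, 0.05 and 0.13. Both the sign and the size of these small medians depended on the processing. That of shNFIB at day 0 was -0.27 with RPKM over 2, and that of shMLL1 at day 0 was 0.24 with quantile normalization. Lars2 was the lowest mitochondrial member in each of the 3 lines at day 0 (-0.83, -0.84 and -0.70), and no mitochondrial member was past the 2-fold limit relative to shControl cells at either day.

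Pairs of enzymes for the same amino acid within a library give a comparison in which a single scaling factor per library cancels. Pairs were formed for 15 amino acids, with Farsa for phenylalanine and Eprs with Ears2 for glutamate. Proline, with Eprs and Pars2, was left out. The median cytosolic level was 15.6 times the mitochondrial in the shControl library of day 0 and 5.79 times in that of day 5. For days 0 and 5 the medians were 20.7 and 7.62 with shKDM4D, 11.02 and 9.73 with shNFIB, and 13.3 and 9.01 with shMLL1. The cytosolic gene was the higher of the pair in 15 of 15 pairs in 6 libraries and in 14 of 15 in both shNFIB libraries, where Lars lay below Lars2 (log2 ratio -0.37 at day 0 and -0.24 at day 5). Asparagine had the widest ratio in every library, with Nars over Nars2 at a log2 ratio from 6.73 to 8.39.

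The pair ratio was lower at day 5 than at day 0 for 14 of 15 pairs in shControl cells (median difference -1.01 on the log2 scale) and for 14 of 15 in shKDM4D cells (-0.75). It was lower for 6 and higher for 9 in shNFIB cells (0.11), and lower for 9 and higher for 6 in shMLL1 cells (-0.28). At day 0, 14 of 15 pair ratios were lower in shNFIB than in shControl cells (-0.71). At day 5, 15 of 15 were higher in shMLL1 than in shControl cells (0.49), as were 11 of 15 in shNFIB cells (0.52) and 12 of 15 in shKDM4D cells (0.27).

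**Figure D4:**
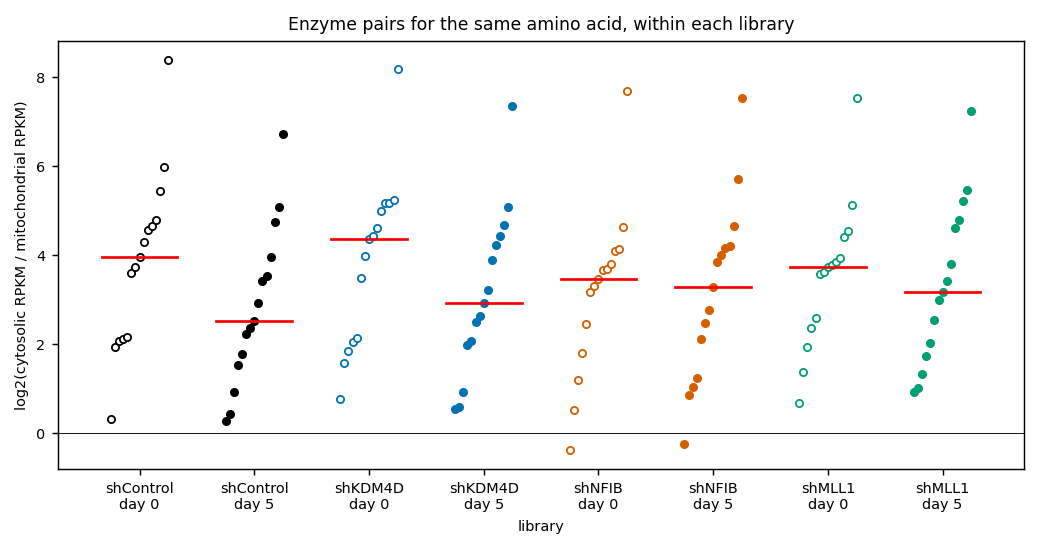
Log2 ratio of cytosolic to mitochondrial RPKM for 15 amino acids with a gene in each set (proline left out), by library. Each pair has a point, open for day 0 and filled for day 5, and the median is a red bar. The shControl median goes from 3.96 at day 0 to 2.53 at day 5, and the shNFIB median from 3.46 to 3.28.

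Within the cytosolic set the difference was uneven. The 8 enzymes of the multi-synthetase complex (Dars, Eprs, Iars, Kars, Lars, Mars, Qars and Rars) had a median shControl ratio of day 5 to day 0 of -0.68, with 3 past the limit downward, and the other 12 a median of -1.45, with 9 past it, beside 8.56% of all expressed genes. These medians were -0.57 and -1.02 for shKDM4D and -0.10 and -0.04 for shNFIB, and for shMLL1 the complex had the lower one (-0.38 against -0.27). Complex members spread widely, from Iars at -1.78 to Dars at 0.10. Of the scaffold genes Aimp1, Aimp2 and Eef1e1, the median was -0.94 in shControl cells, with Eef1e1 past the limit (-1.05), and -0.92 in shKDM4D cells, with Aimp2 past it (-1.27). The scaffold median was -0.28 in shNFIB cells and -0.82 in shMLL1 cells, where that of the cytosolic synthetases was -0.28. Divided by catalytic fold, the 9 class I enzymes had a shControl median of -1.43 and the 10 class II enzymes one of -0.92, Eprs belonging to both.

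The 5 genes with the TGATGNAA core in the promoter had a median shControl ratio of -1.62 (from -1.83 to -1.09), and the 8 without it -0.58 (from -1.46 to 0.10). The second group contains Mars (-1.46) and Sars (-1.08), so the ranges overlap. The 7 genes with no promoter in the table had a median of -1.43. In shNFIB cells at day 0 relative to shControl, the medians were -1.03 with the core, -0.35 without it and -0.71 for genes not in the table.

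Genes around the family were listed to place it. Of the ATF4 pathway genes, 13 were measured (Atf4, Trib3, Chac1, Asns, Psat1, Phgdh, Shmt2, Mthfd2, Slc7a11, Slc7a5, Slc3a2, Sesn2 and Atf5), covering the factor, its feedback and glutathione-degrading targets, synthesis of asparagine, serine and glycine, mitochondrial folate enzymes and amino acid transporters. Ddit3, also on the planned list, is not among these 13 and no values are given for it. In shControl cells the median ratio of the 13 genes, day 5 to day 0, was -2.22, with 11 of 13 past the limit downward (8.56% of all expressed genes). Asns, the asparagine synthetase, was at -2.46, Psat1 and Phgdh of serine synthesis at -2.56 and -2.22, and Slc7a5, a subunit of the large neutral amino acid transporter, at -2.83. Atf4 itself stood at 187 RPKM at day 0 and 71.9 at day 5 (-1.38). The median was -1.68 in shKDM4D cells (9 of 13 past the limit downward, beside 8.44% of all), 0.65 in shNFIB cells (2 past it upward, beside 12.6% of all, Chac1 at 1.88 and Trib3 at 2.02) and 0.28 in shMLL1 cells (Trib3, Sesn2 and Slc3a2 past it upward, beside 20.4% of all, and Psat1 and Shmt2 downward, beside 6.89%). At day 0 it was -1.26 in shNFIB relative to shControl cells (12 of 13 downward, beside 6.05% of all), with Atf4 at 70.9 RPKM, and -1.002 in shMLL1 cells (7 downward, beside 7.43% of all). At day 5 the medians relative to shControl were 0.60, 1.00 and 0.96 in shKDM4D, shNFIB and shMLL1 cells. These values stand beside those of the synthetases as a description across the same 8 libraries, and shared regulation was not tested.

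The 5 cytosolic elongation factor genes listed were Eef1a1, Eef1b2, Eef1d, Eef1g and Eef2. The product of Eef1a1 brings charged tRNA to the ribosome and that of Eef2 moves it on. The median ratio of these 5 genes, day 5 to day 0, was -0.26 in shControl cells, against -1.11 for the cytosolic synthetases. In the shKDM4D line it was -0.39 against -0.82. The medians of these factors and of the synthetases lay close together in shNFIB cells (-0.11 and -0.08), and both were -0.28 in shMLL1 cells. No elongation factor gene was past the limit over time in any line.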

How the data were processed

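The authors deposited for each of the 8 libraries a table of RPKM values per gene, made from mRNA-seq reads with CLC Genomics Workbench (version 11.0.1) on the GRCm38 (mm10) genome. The methods mention quantile normalization, which the deposited values do not show. RPKM was used as deposited, with no pseudocount, and genes over an RPKM of 1 in at least 1 library were called expressed. Whether counting used strand is not given in the sources used here. For 33 of the 36 members RPKM times exon length in GENCODE M21 gave whole reads in all libraries (within 0.02), with 96.2% to 96.6% of values whole per library. For Hars, Lars and Nars whole reads were found in 0 of the 8 libraries, so their reads are rounded estimates and their intervals approximate. From these reads exact 95% Clopper-Pearson intervals were computed, which cover counting error only. Depth was about 15800000 to 38200000 reads. Members and lists were chosen with earlier results of these data known. Each member is named, and values in all libraries are given for the 10 cytosolic and 5 mitochondrial members with the largest ratio of highest to lowest RPKM, for any member past 2-fold, and for Gars and Kars. The calculations used Python 3.11.15, numpy 2.4.6, pandas 2.3.3 and scipy 1.17.1 and were tested on simulated counts. Alternatives were 1 added to each RPKM, other limits, and other scalings. Some results are not reported here.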

Additional observations from a re-analysis of the deposited data

Results flagged for a closer look

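For 5 cytosolic members and 1 mitochondrial member, the log2 ratio of day 5 to day 0 had the opposite sign in a knockdown line to that in shControl cells, with both counting intervals off 0. Each line has 1 library per day, so the difference was not tested. Aars, at -1.83 in shControl cells, stood at 0.36 with the shNFIB and 0.045 with the shMLL1 hairpin. The median of all expressed genes in shMLL1 cells was 0.17, so the last value is not above it. Without the rRNA-like reads that median shifted by -0.11, more than the 0.045 of Aars, whose sign in shMLL1 cells thus rests on the scaling. Eprs, at -0.72 in shControl cells, stood at 0.45 in shNFIB and 0.74 in shMLL1 cells. Sars, at -1.08, stood at 0.42 and 0.50 in these lines. In shNFIB cells Gars stood at 0.17 (shControl -1.48) and Yars at 0.25 (shControl -1.09). The mitochondrial Iars2 was at 0.12 in shControl and -0.12 in shKDM4D cells.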

How the results depend on the processing

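No paired analysis was possible because each line has 1 library per day and so no replicate numbers to pair. A fit that takes the 4 lines as pairs of days was not run. No median ratio of the cytosolic set changed sign under any alternative run. For the mitochondrial set, medians at most 0.11 from 0 changed sign 7 times. With RPKM over 2 this was so at 0.00 for shNFIB day 5 to day 0, -0.10 for shMLL1 at day 0, 0.06 for shKDM4D and -0.02 for shNFIB at day 5. With quantile normalization it was 0.01 for shNFIB at day 0 and 0.11 for shKDM4D at day 5, and with median-of-ratios scaling -0.03 for shNFIB at day 5 (knockdown to shControl unless days are named). Leaving out Lars2, or Gars and Kars, chosen after seeing the data, changed the sign of no median. The median of all expressed genes shifted by over 0.1 with quantile normalization (-0.29 in shMLL1 and -0.16 in shNFIB cells over time, 0.11 for shMLL1 at day 0), median-of-ratios scaling (-0.16 in shMLL1 cells), without the rRNA-like reads (-0.11 in shControl and shMLL1 cells) and without a filter (0.11 to 0.19).

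Values that moved were as follows, and the cause was not tested. By less than the counting interval of a typical member, quantile normalization also took the mitochondrial median over time from -0.25 to -0.48 in shKDM4D and from -0.11 to -0.37 in shNFIB cells, and RPKM over 2 took that of shNFIB at day 0 from -0.04 to -0.27. Quantile normalization gave mitochondrial medians of day 5 to day 0 of -0.66 in shControl and -0.54 in shMLL1 cells, 0.24 for shMLL1 at day 0, and a cytosolic median of -0.42 in shMLL1 cells over time, with 3, 1 and 5 mitochondrial members past 2-fold in shControl, shKDM4D and shMLL1 cells over time, 1 for shMLL1 at day 5, and 1 cytosolic in shMLL1 cells over time. Median-of-ratios scaling gave cytosolic medians of -0.44 in shMLL1 cells over time and -0.16 at day 0, with 1 cytosolic and 1 mitochondrial member past 2-fold in shMLL1 cells. Without the rRNA-like reads the cytosolic medians were -1.22 in shControl and -0.39 in shMLL1 cells over time, with 1 cytosolic member past 2-fold in shMLL1 cells and 1 mitochondrial in each of shKDM4D and shMLL1 cells. Mars2 was not past 2-fold in shNFIB cells with 1 added to each RPKM or RPKM over 2 (0 members). At a 1.5-fold limit the mitochondrial counts were 3, 3 and 7 in shControl, shKDM4D and shMLL1 cells over time, 1, 2 and 1 for shKDM4D, shNFIB and shMLL1 at day 0, and 1 each for shNFIB and shMLL1 at day 5, and the cytosolic counts 8 in shMLL1 cells over time, 12 and 4 for shNFIB and shMLL1 at day 0, and 2, 5 and 9 at day 5. At that limit, in either direction, stood 40.2%, 38.7% and 47.8% of all expressed genes in shControl, shKDM4D and shMLL1 cells over time, 14.1%, 20.9% and 20.6% for shKDM4D, shNFIB and shMLL1 at day 0, and 14.6%, 26.4% and 21.2% at day 5. The median log2 pair ratio, in the order shControl, shKDM4D, shNFIB, shMLL1 with day 0 before day 5, was 3.32, 2.18, 3.59, 2.38, 3.02, 2.51, 3.02 and 2.59 with 1 added, and 2.89, 2.01, 2.82, 2.30, 2.88, 2.30, 3.17 and 2.29 with RPKM over 2. It was 3.03 for shNFIB at day 5 with RPKM over 1, 2.83, 3.58 and 3.48 for shControl day 5 and shMLL1 day 0 and 5 with quantile normalization, and 3.43, 3.62, 3.0002, 2.97 and 3.45 for shControl and shKDM4D day 0, shNFIB day 0 and 5 and shMLL1 day 0 as the ratio of sums. Under each of these alternatives the median over the pairs in a library, or the ratio of sums, was lower at day 5 than at day 0 in every line. In shNFIB cells, however, 9 of 15 single pairs were higher at day 5. Pars2, with 54 reads in the shNFIB library of day 5, has an interval of -0.54 to 0.56 for its change in that line, and depth limits the low mitochondrial members in this way.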
